A study of Mus musculus with 2 samples.

Results

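Intracellular serpins of clade B were followed across the immune cells of mouse tumours. The 7 genes are Serpinb9, Serpinb9b, Serpinb6b, Serpinb6a, Serpinb1a, Serpinb2 and Serpinb8, taken by symbol from the 32285 genes of the deposited count matrices, and each symbol matched 1 gene. They were selected on UMI levels by cell class seen in earlier results from these same libraries, so their levels by cell type are given as a description, without a test.

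Serpins trap proteases. The target cuts an exposed loop of the serpin, the serpin changes shape, and the pair stays joined in an inactive complex. Clade B members lack the classical secretion signal and mostly stay in the cytosol and nucleus, where they meet proteases that leak from granules or enter from outside. Killer lymphocytes carry granzymes, serine proteases that perforin delivers into target cells, and such lymphocytes and antigen-presenting cells are known to hold serpins that block them.

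The data are 2 droplet single-cell RNA libraries of CD45+ cells sorted from tumours of C57BL/6 mice, 1 labelled WT and 1 labelled Ythdf2 KO. Ythdf2 encodes a reader of N6-methyladenosine on RNA. The series' design text speaks of cKO mice and its title of a tumour-intrinsic role, so the cells that lost Ythdf2 are not settled by the labels, and neither the tumour line, the age of the mice nor the number pooled is given in the sources used here. Each comparison of genotypes is thus a comparison of 2 libraries with no replicate check, no test was made, and the 95% intervals cover counting error only.

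The WT library held 20415 barcodes after filtering and the Ythdf2 KO library 15844, with median depths of 5674 and 5753 UMIs (unique molecular identifiers, counted transcripts). Marker UMIs placed 57.2% of WT and 55.6% of KO barcodes in a cell class, and 11 classes held at least 50 cells in both libraries, from 51 patrolling monocytes in WT to 4058 C1q macrophages in WT. Ptprc, the gene of CD45, had a UMI in 88.7% of WT and 87.4% of KO barcodes. The libraries shared 101 barcode sequences, and leaving these out moved none of the member ratios beyond their counting interval. Ythdf2 itself stood at 48.8 counts per 1000000 UMIs of the class (CPM) in WT NK cells and 46.3 CPM in KO NK cells, and at 48.1 and 50.4 CPM in C1q macrophages. The deleted stretch is not given in the sources used here and these are 5′ end tags, so this does not check the labels.

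The family falls on 2 chromosomes in mm10. On chromosome 13 lie Serpinb1a (32842092 to 32851185, minus strand), Serpinb6b (32965209 to 32979067, plus), Serpinb9 (33003250 to 33017957, plus), Serpinb9b (33027416 to 33041884, plus) and Serpinb6a (33917918 to 34002794, minus). On chromosome 1 lie Serpinb2 (107511423 to 107535478, plus) and Serpinb8 (107590006 to 107610484, plus). All are protein-coding genes. The coding sequences of Serpinb9 and Serpinb9b were identical at 86.4% of 1119 aligned bases, and those of Serpinb6a and Serpinb6b at 86.3%. Reads that fit a near copy equally well can be lost or misplaced. By coding identity Serpinb1a had the closest copies, sharing 90.7% with Serpinb1b and 89.7% with Serpinb1c. Serpinb6a and Serpinb6b shared 87.2% and 87.9% with Serpinb6c. Likeness at the 5′ ends, which the reads cover, was not compared.

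Serpinb9, Serpinb9b and Serpinb6b are neighbours on the same strand and were the members highest in killer lymphocytes, so their promoters are shown (RefSeq, GRCm38.p6, plus strand, 250 bases before to 50 after the annotated start). They span chr13:33004291-33004590, chr13:33027164-33027463 and chr13:32965011-32965310. Capitals mark a match to the core of the interferon-stimulated response element, TTTC and TTTC with NN between, searched on both strands. An NF-kB site (GGGA and TTCC with NN between), a T-box site (AGGTGTGA), an ETS core (GGAAGT) and a TATA box (TATAAA) were searched in the same way and had no match in these 3 windows.
Serpinb9: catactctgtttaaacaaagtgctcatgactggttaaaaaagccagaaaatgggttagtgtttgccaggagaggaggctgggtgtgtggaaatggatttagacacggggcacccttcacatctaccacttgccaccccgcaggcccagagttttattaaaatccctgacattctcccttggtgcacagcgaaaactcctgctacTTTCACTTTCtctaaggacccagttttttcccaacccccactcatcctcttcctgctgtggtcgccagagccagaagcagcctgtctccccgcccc
Serpinb9b: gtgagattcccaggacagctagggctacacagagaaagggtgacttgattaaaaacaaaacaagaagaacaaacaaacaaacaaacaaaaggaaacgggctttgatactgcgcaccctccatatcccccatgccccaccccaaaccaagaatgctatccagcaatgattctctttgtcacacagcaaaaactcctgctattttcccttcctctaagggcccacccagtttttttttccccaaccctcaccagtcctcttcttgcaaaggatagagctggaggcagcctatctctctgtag
Serpinb6b: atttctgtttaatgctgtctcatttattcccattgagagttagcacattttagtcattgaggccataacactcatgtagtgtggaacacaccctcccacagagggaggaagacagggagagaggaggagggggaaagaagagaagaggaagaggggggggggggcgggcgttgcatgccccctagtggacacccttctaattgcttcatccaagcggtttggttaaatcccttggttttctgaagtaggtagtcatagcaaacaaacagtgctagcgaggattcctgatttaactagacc
The Serpinb9 match begins 46 bases before the start, and 3.45% of 32544 promoters of this length hold the motif on either strand. That motif had no match in the windows of Serpinb9b and Serpinb6b. A window of Serpinb6a, not shown, also held a match, beginning 84 bases before its start. The Serpinb9 and Serpinb9b windows were identical at 67.4% of 276 aligned bases and those of Serpinb9 and Serpinb6b at 57.8% of 256. A match is only a string of letters, and binding was not measured.

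Serpinb9 is the inhibitor of granzyme B. Its level was 978 CPM (95% Poisson interval 943 to 1015) in WT mature dendritic cells (DCs), the Ccr7+ Fscn1+ migratory type, and 1044 CPM (993 to 1096) in KO. NK cells held 574 CPM (563 to 585) in WT and 633 CPM (618 to 649) in KO. T cells carrying NK receptors held 419 and 492 CPM.
Gamma-delta T cells followed with 286 and 374 CPM and CD8 T cells with 207 and 325 CPM. The order of these 5 classes was the same in both libraries, with intervals clear of each other except between KO gamma-delta and CD8 T cells. The 6 remaining large classes lay at 11.1 to 40.4 CPM in either library. Serpinb9 transcripts were thus concentrated, among large classes, in killer lymphocytes and mature DCs.
At an equal depth of 1000 UMIs per cell, 52.9% of WT and 51.3% of KO mature DCs held a Serpinb9 UMI, against 43.1% and 44.9% of NK cells. In C1q macrophages the shares were 2.29% and 2.16%. The smaller DC classes lacked this level, with 15.2 and 11.1 CPM in cDC2 (59 and 15 cells) and 0 and 28.1 CPM in cDC1 (20 and 16 cells, 4 UMIs). Without thinning, 86.8% and 85.2% of mature DCs (median depth 5116 and 5291 UMIs) and 90.7% and 90.5% of NK cells (8762 and 7939 UMIs) held a UMI.

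Serpinb6b, an inhibitor of granzyme A, had much the same distribution. Mature DCs held 905 CPM (871 to 940.5) in WT and 1081 CPM (1029 to 1134) in KO. NK cells held 511 CPM (501 to 521) and 657 CPM (642 to 673), CD8 T cells 461 and 532 CPM, T cells with NK receptors 449 and 489 CPM, and gamma-delta T cells 239.7 and 433 CPM.
Plasmacytoid DCs were next, with 148 CPM in WT and 89.4 CPM in KO. The 5 remaining classes (monocytes, patrolling monocytes, C1q macrophages, B cells and neutrophils) held between 3.95 and 14.4 CPM. Across the 23 points that classes and libraries give, log2(CPM + 1) of Serpinb9 and Serpinb6b correlated with r = 0.95, the highest value among member pairs. The points share 2 libraries and related classes, so the value is a description.

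**Figure D1:**
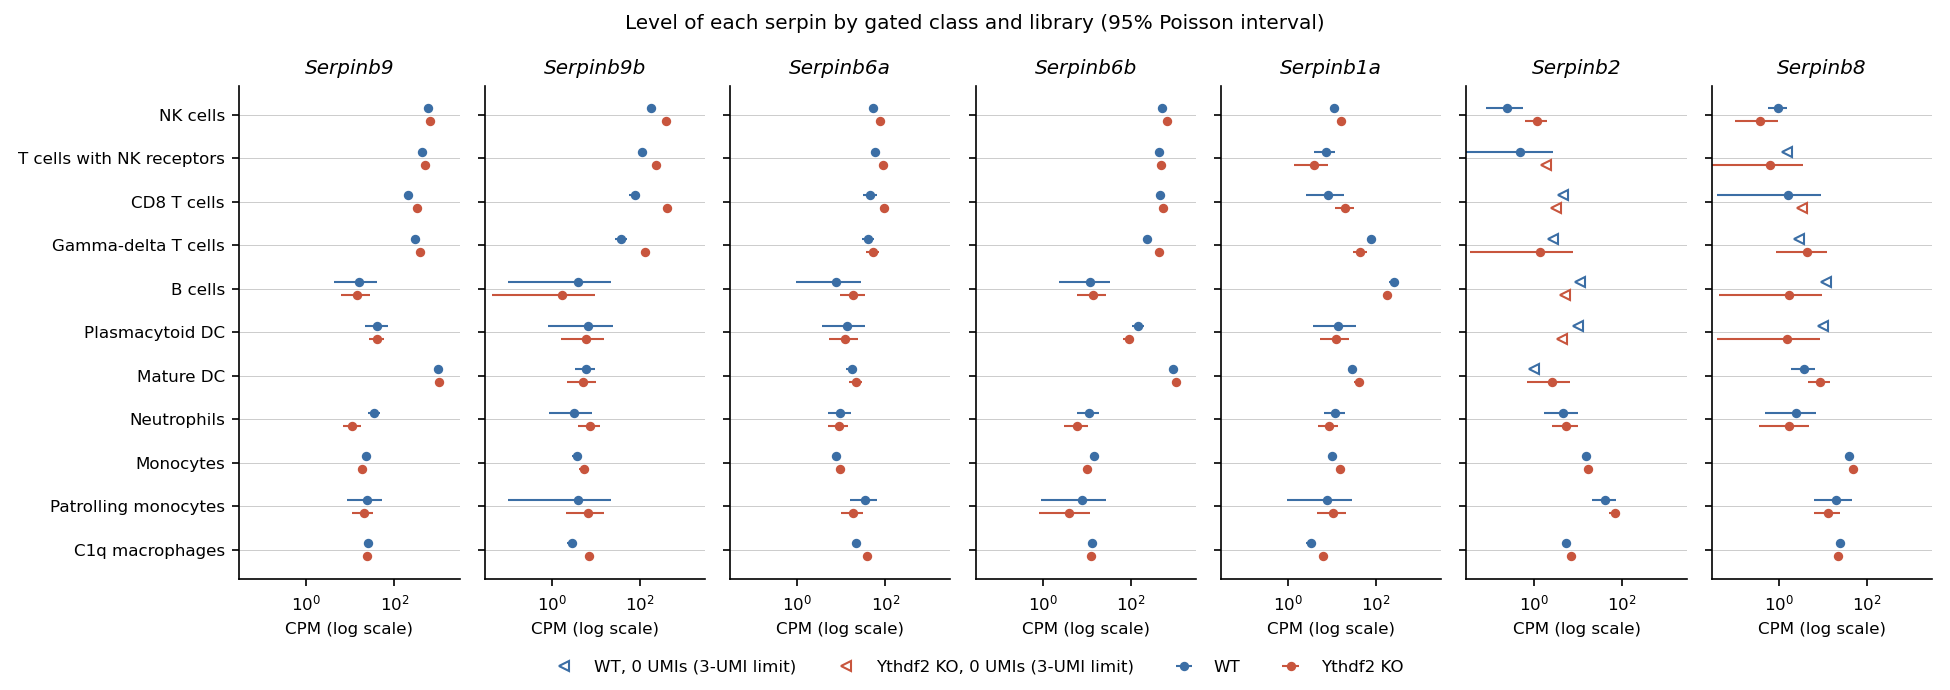
Level of each serpin (CPM, log axis) in 11 cell classes of the WT (blue) and Ythdf2 KO (red) library. Bars are 95% Poisson intervals of the summed UMIs and open triangles mark 0 UMIs, drawn at the 3-UMI limit. Serpinb9 and Serpinb6b peak in mature DCs (978 and 905 CPM in WT), Serpinb9b in NK cells in WT (178 CPM), Serpinb1a in B cells (248 CPM in WT), and Serpinb2 and Serpinb8 in myeloid classes.

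Serpinb9b, a close relative of Serpinb9 known to inhibit granzyme M, was found mainly in lymphocytes among the 11 large classes. NK cells held 178 CPM (172 to 184) in WT and 395 CPM (383 to 407) in KO. T cells with NK receptors held 111 and 228 CPM, CD8 T cells 75.9 CPM (55.9 to 101) and 414 CPM (373 to 458), and gamma-delta T cells 37.3 and 132 CPM. NK cells were highest in WT, and the NK and CD8 T intervals overlapped in KO.
Every other large class lay at or under 7.22 CPM, mature DCs included (5.84 and 5.23 CPM). Mature DCs therefore held the Serpinb9 and Serpinb6b transcripts and hardly any of Serpinb9b. Set against NK cells of the same library, Serpinb9 in mature DCs was at 170.5% of the NK level in WT and 165% in KO, and Serpinb6b at 177% and 164%. Serpinb9b was at 3.28% and 1.33%.
Transcripts that mark killer cells were as scarce there as Serpinb9b: Gzmb stood at 2.34% and 0.877% of its NK level, Prf1 (perforin) at 1.96% and 0.849%, and Nkg7 at 2.23% and 1.32%. In plasmacytoid DCs, Serpinb6b was at 29.0% and 13.6% of the NK level, Serpinb9 at 7.04% and 6.22%, and Gzmb at 1.63% and 0.968%. In C1q macrophages, Serpinb9 was at 4.43% and 3.67%, Serpinb6b at 2.64% and 1.91%, and Serpinb9b at 1.59% and 1.77%, close to Gzmb (2.65% and 2.06%) and Nkg7 (2.42% and 1.52%). Serpinb6b and Serpinb9b in macrophages were thus at the level that these killer-cell transcripts reached there and are not read as expression, while Serpinb9 stood somewhat above it.

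**Figure D2:**
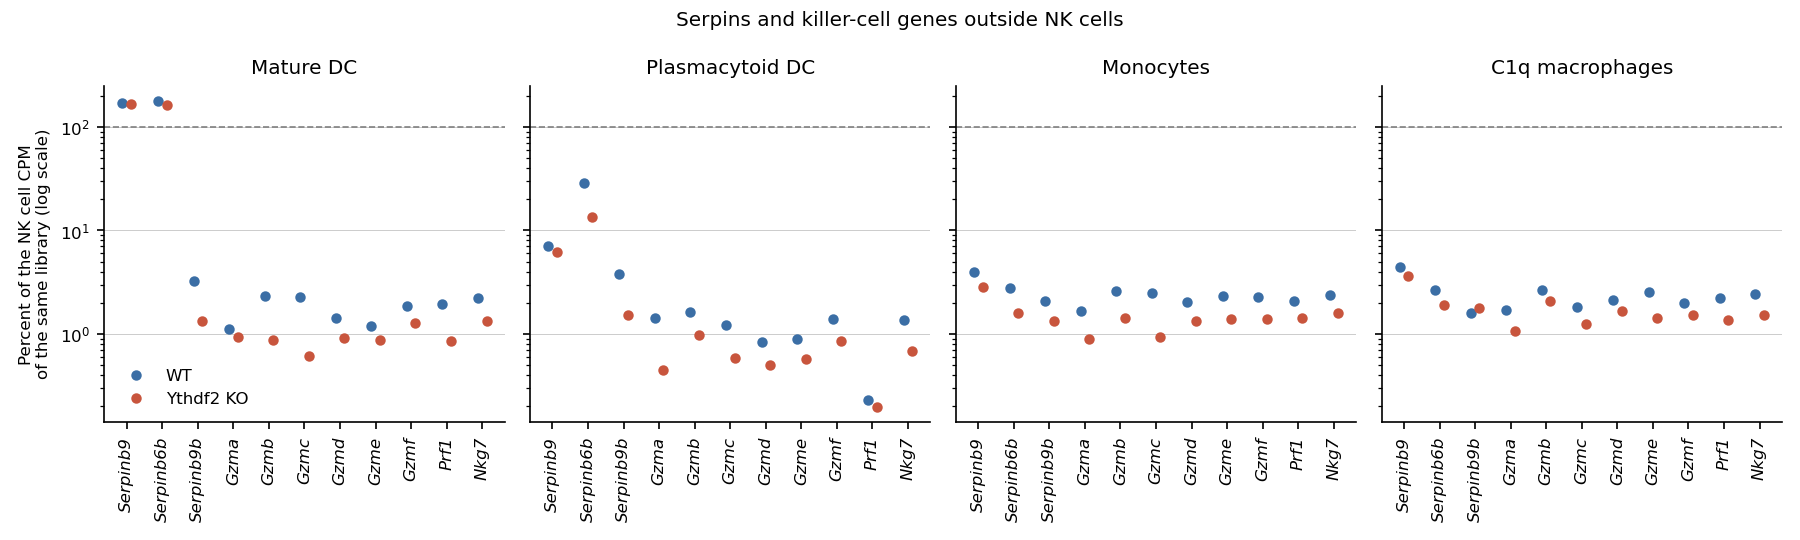
Level of granzyme-directed serpins and of killer-cell transcripts in 4 myeloid classes, as a percentage of the NK level in the same library (log axis, blue WT, red KO, dashed line at 100%). In mature DCs Serpinb9 (170.5% and 165%) and Serpinb6b (177% and 164%) stand above the line while Serpinb9b, the granzymes, Prf1 and Nkg7 lie far under it.

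Within NK cells, Serpinb9 was spread over most cells and Serpinb9b over few. The 10% of NK cells richest in Serpinb9 held 30.1% of its UMIs in WT and 30.9% in KO. The 10% richest in Serpinb9b held 73.3% and 65.8% of its UMIs. At least 1 Serpinb9b UMI was seen in 569 of 2003 WT and 470 of 1159 KO NK cells.
At 2000 UMIs per cell, 37.0% of WT and 43.6% of KO NK cells held UMIs of both Serpinb9 and Serpinb6b. All 3 of Serpinb9, Serpinb9b and Serpinb6b were seen in 6.64% and 12.7%, and none in 14.6% and 9.71%. Among mature DCs, 51.5% and 60.6% held both Serpinb9 and Serpinb6b at this depth.

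Serpinb6a, an inhibitor of cathepsin G, was broader. Its level was 52.0 CPM in WT and 74.7 CPM in KO NK cells, 57.2 and 89.4 CPM in T cells with NK receptors, and 45.8 and 94.4 CPM in CD8 T cells. C1q macrophages held 21.9 and 38.7 CPM.
The gap between macrophages and NK cells was far narrower than for Serpinb9: the macrophage level was 42.2% of the NK level in WT and 51.8% in KO. Macrophages with an Mrc1 UMI among 1000 sampled UMIs held 44.2 and 78.3 CPM and those without 19.0 and 30.9 CPM. Mrc1 encodes the mannose receptor of alternatively activated macrophages, and this split was added after the data had been seen. Cathepsin G itself (Ctsg) was found in NK cells at 33.0 CPM in WT and 40.4 CPM in KO.

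Serpinb1a, an inhibitor of neutrophil elastase, proteinase 3 and cathepsin G, was highest in B cells among the large classes, at 248 CPM (191 to 317) in WT and 174 CPM (142 to 211) in KO. Gamma-delta T cells held 76.5 and 43.9 CPM and mature DCs 28.2 and 41.2 CPM. Neutrophils held only 11.9 and 8.34 CPM. At 1000 UMIs per cell, 20.8% of WT and 16.3% of KO B cells had a Serpinb1a UMI.
A small class of mast cells or basophils held 210.1 CPM of Serpinb1a in WT (28 cells), under the B cell level, and 2951 CPM in KO (11 cells), above it. In the KO library 182 of its 185 UMIs came from 5 cells that held the mast cell chymase Cma1, at 5133 CPM, and WT had no such cell. Without them the level was 210.1 CPM in WT (16 UMIs) and 110.1 CPM in KO (3 UMIs), so the gap between libraries rests on those 5 cells.

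Serpinb2 and Serpinb8 were myeloid. Serpinb2, an inhibitor of the urokinase plasminogen activator, was highest in patrolling monocytes, at 42.7 CPM in WT (11 UMIs) and 69.9 CPM in KO (53 UMIs). Classical monocytes held 15.9 and 17.0 CPM, C1q macrophages 5.57 and 7.07 CPM and neutrophils 4.77 and 5.56 CPM.
CD8 T cells, B cells and plasmacytoid DCs held no Serpinb2 UMI in either library, where the limit of 3 UMIs is 3.29 to 11.6 CPM. In C1q macrophages the gene sat in few cells, 44 of 4058 in WT and 52 of 2484 in KO. The class was split by an Arg1 UMI among 1000 sampled UMIs, which leaves out shallower cells (4058 and 2484 cells before). Macrophages with Arg1, the arginase of tumour macrophages, held 17.6 CPM in WT (83 UMIs in 794 cells) and 7.77 CPM in KO (13 UMIs in 233 cells), and those without held 2.47 and 7.0 CPM. The KO/WT ratio was thus 0.440 (95% interval 0.225 to 0.795) with Arg1 and 2.83 (1.97 to 4.13) without, a split added after the data had been seen and a difference that was not tested. Of the 83 WT UMIs with Arg1, 63 lay in 3 cells. Without the 3 highest cells of each library the ratios were 0.426 (0.0811 to 1.44), an interval that spans 1, and 2.39 (1.56 to 3.72).
Serpinb8, an inhibitor of the proprotein convertase furin, was highest in monocytes, at 39.4 CPM (36.6 to 42.4) in WT and 48.0 CPM (44.7 to 51.5) in KO. C1q macrophages held 24.9 and 21.9 CPM and patrolling monocytes 19.4 and 13.2 CPM. NK cells held 0.961 and 0.373 CPM, which is 2.44% and 0.776% of the monocyte level. The monocyte transcript Lyz2 stood at 2.80% and 3.82% of its monocyte level in NK cells, so Serpinb8 was at or under that background.

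The libraries were then compared class by class. A gene was counted in a class when it had at least 100 UMIs over both libraries, and called when the KO/WT ratio of CPM reached 1.5-fold either way. Of 77 pairs of member and class, 36 were counted, 12 were called higher in KO, 2 lower, and 22 lay within 1.5-fold. Among all counted genes, the share called higher was 0.988% to 5.04% and the share called lower 1.80% to 8.56% in the classes with a member call, as given class by class below. A ratio close to the limit can fall on either side by counting error alone.

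The largest member differences were those of Serpinb9b. In NK cells it was 2.22-fold higher in KO (95% interval 2.12 to 2.32), the only call among 5 counted members, where 0.988% of all counted genes were called higher and 1.80% lower. At 1000 UMIs per cell, 11.1% of WT NK cells (9.79 to 12.6) and 17.2% of KO NK cells (15.1 to 19.5) had a Serpinb9b UMI. Serpinb6a was at 1.44, Serpinb6b at 1.29 and Serpinb9 at 1.10 in the same cells, all under the fold used.
The target proteases did not pass the fold in NK cells. Gzmb stood at 5382 CPM in WT and 4850.2 CPM in KO (ratio 0.901) and Gzma at 8049.8 and 8489 CPM (1.05). None of the 8 counted granzyme and perforin genes was called, and their median log2 ratio was 0.15 against -0.03 over all counted genes. Gzmm, the target of Serpinb9b, had only 41 UMIs in WT and 29 in KO NK cells.
In NK cells, the median log2 ratio of the 5 counted members was 0.52. Among other clade B serpins, 20 of which the file lists, Serpinb1b alone reached the count, with 3.39 and 5.13 CPM (ratio 1.51, 1.04 to 2.19). Of those 20 genes, 13 had no UMI in any large class.

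NK cells differ in their load of granzymes C to G, so the comparison was repeated in bins of Gzmc to Gzmg UMIs per 1000 UMIs, a split added after the data had been seen. Serpinb9b went up with the bin in both libraries: 107, 128, 218 and 247 CPM in WT and 177, 199.8, 472 and 637 CPM in KO, for bins of 0, 1 to 9, 10 to 39 and 40 or more. The KO/WT ratio was 1.66, 1.56, 2.17 and 2.58. The KO library was above WT in each of the 4 bins.
Serpinb6a also stood higher in the bins richer in granzymes, from 24.9 to 103 CPM in WT and from 17.7 to 141 CPM in KO. Its ratio was 0.714 in the lowest bin and 1.04, 1.59 and 1.37 in the others. Serpinb9 ran the other way, from 702 to 479 CPM in WT and from 795 to 509 CPM in KO. Serpinb6b was 1.64-fold higher in KO in the bin of 0 and at least 1.21-fold higher in each of the others.
Median depth also differed along the bins, from 4349 to 13019 UMIs in WT and from 4016 to 13206 UMIs in KO, and its part in these levels was not tested.

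**Figure D3:**
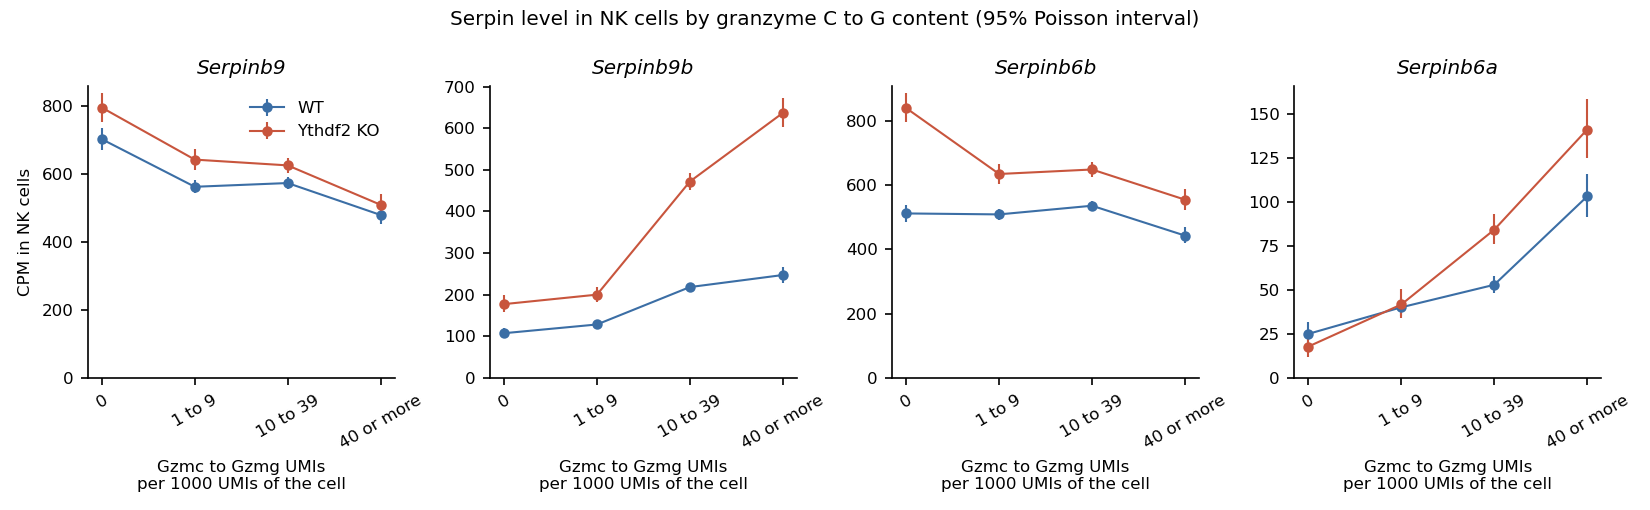
Level (CPM) of Serpinb9, Serpinb9b, Serpinb6b and Serpinb6a in NK cells binned by Gzmc to Gzmg UMIs per 1000 UMIs (0, 1 to 9, 10 to 39, 40 or more), WT in blue and Ythdf2 KO in red, with 95% Poisson intervals. Serpinb9b is higher in KO in each bin, reaching 247 CPM in WT and 637 CPM in KO, while Serpinb9 is lowest in the bin richest in granzymes.

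CD8 T cells (87 in WT, 96 in KO) had 3 of 4 counted members called higher and none lower, where 5.04% of counted genes were called higher and 8.56% lower. Serpinb9b was 5.46-fold higher in KO (4.03 to 7.53), Serpinb6a 2.06-fold (1.34 to 3.26) and Serpinb9 1.57-fold (1.27 to 1.94). Serpinb6b was at 1.15.
The Serpinb9 call was lost in 3 of 11 alternatives, with 1.31 for a marker minimum of 2 times, 1.37 with no exclusion marker allowed and 1.42 without macrophage exclusion. For Serpinb6b no direction is read, since it ranged from 0.703 to 1.58. Lyz2, a myeloid transcript, stood at 261 CPM in WT and 49.4 CPM in KO CD8 T cells, and its part in these ratios was not tested.
The Serpinb9b difference rests on few cells. WT had 48 UMIs in 9 cells, 42 of them in 3 cells, and KO had 377 UMIs in 33 cells. Without the 3 highest cells of each library the ratio was 29.8 (13.5 to 82.0), in the same direction. Where no exclusion marker was allowed, which left 26 and 30 cells, it was 72.1. Among CD8 T cells with no Gzmc to Gzmg UMI in 1000 sampled UMIs (59 and 52 cells), Serpinb9b had 2 UMIs in WT and 47 in KO. The Serpinb9b ratio was 2.82 in the bin of 1 to 9 (21 and 23 cells). It was 2.26 in that of 10 to 39 (5 and 17 cells). Serpinb9 was at 2.03 and 3.13 in the bins of 0 and 1 to 9. In that of 10 to 39 Serpinb9 was lower in KO, at 0.481 (0.336 to 0.692). Across the same bins Serpinb6a was at 3.43, 1.75 and 0.847 and Serpinb6b at 1.28, 1.74 and 0.476. The bin of 40 or more held 1 and 3 cells.
Granzyme genes differed too in this class: 4 of 8 counted were called higher, with Gzmf at 2.55, Gzme at 2.30, Gzmc at 1.65 and Prf1 at 1.60, and Gzmg was called lower at 0.327. Of the cathepsins, 3 of 5 counted were lower (Ctsz at 0.581, Ctss at 0.596 and Ctsb at 0.617), as were Furin (0.527) and Cstb (0.661), in the direction of Lyz2. At 2000 UMIs per cell, 61.7% of WT and 34.7% of KO CD8 T cells held no UMI of Serpinb9, Serpinb9b or Serpinb6b.

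In gamma-delta T cells (200 and 117 cells), 2 of 4 counted members were called higher (2.28% of counted genes) and 1 lower (5.31%). Serpinb9b was 3.53-fold higher (2.41 to 5.25) and Serpinb6b 1.81-fold higher (1.53 to 2.14). Serpinb1a was lower, at 0.574 (0.367 to 0.878), a call lost with a marker minimum of 2 times (0.704) and without macrophage exclusion (0.718). Lyz2 stood at 68.1 CPM in WT and 414 CPM in KO gamma-delta T cells, and its part in these ratios was not tested.
Of the 93 KO UMIs of Serpinb9b here, 82 came from 3 cells. Without the 3 highest cells of each library its ratio was 1.93 (0.728 to 5.27), an interval that spans 1, and with the marker minimum raised to 2 times its value (104 and 60 cells) it was 0.186. Serpinb6b was 1.22 with that minimum and 2.56 where no exclusion marker was allowed.
In gamma-delta T cells with no Gzmc to Gzmg UMI in 1000 sampled UMIs (124 and 84 cells), Serpinb6b stood at 219 CPM in WT and 228 CPM in KO, and Serpinb9b had 9 and 3 UMIs. Neither gene was higher in KO by the fold used in this lowest bin. Serpinb6b was higher in KO in the bin of 1 to 9, at 2.37 (1.67 to 3.35, 70 and 24 cells). It was also higher in the bin of 10 to 39, at 1.98 (1.38 to 2.91, 5 and 7 cells). In the bin of 40 or more, with 1 cell in each library, it was at 0.997. Serpinb9b was at 2.47 (0.331 to 18.5) in the bin of 1 to 9 and 1.47 (0.910 to 2.43) in that of 10 to 39. In the class as a whole, Gzme (3.18), Gzmd (3.04), Gzma (1.83) and Prf1 (1.71) were also higher in KO, and Gzmf (0.272) was lower.
In T cells with NK receptors (172 and 162 cells), Serpinb9b was 2.05-fold higher (1.73 to 2.43) and Serpinb6a 1.56-fold higher (1.21 to 2.02), 2 of 4 counted members where 1.92% of counted genes were called higher and 2.77% lower. Serpinb9 was at 1.17 and Serpinb6b at 1.09. Where no exclusion marker was allowed (36 and 30 cells), Serpinb9b was lower in KO, at 0.329, and Serpinb6a was at 1.17, so neither call held there. The Serpinb6a call was also lost at 1.31, 1.41 and 1.32 with a marker minimum of 2 times, without the 3 highest cells of each library and by the mean of each cell's CPM. In these cells Gzmg was higher and Gzma lower in KO, at 5183 CPM in WT and 3385 CPM in KO.

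**Figure D4:**
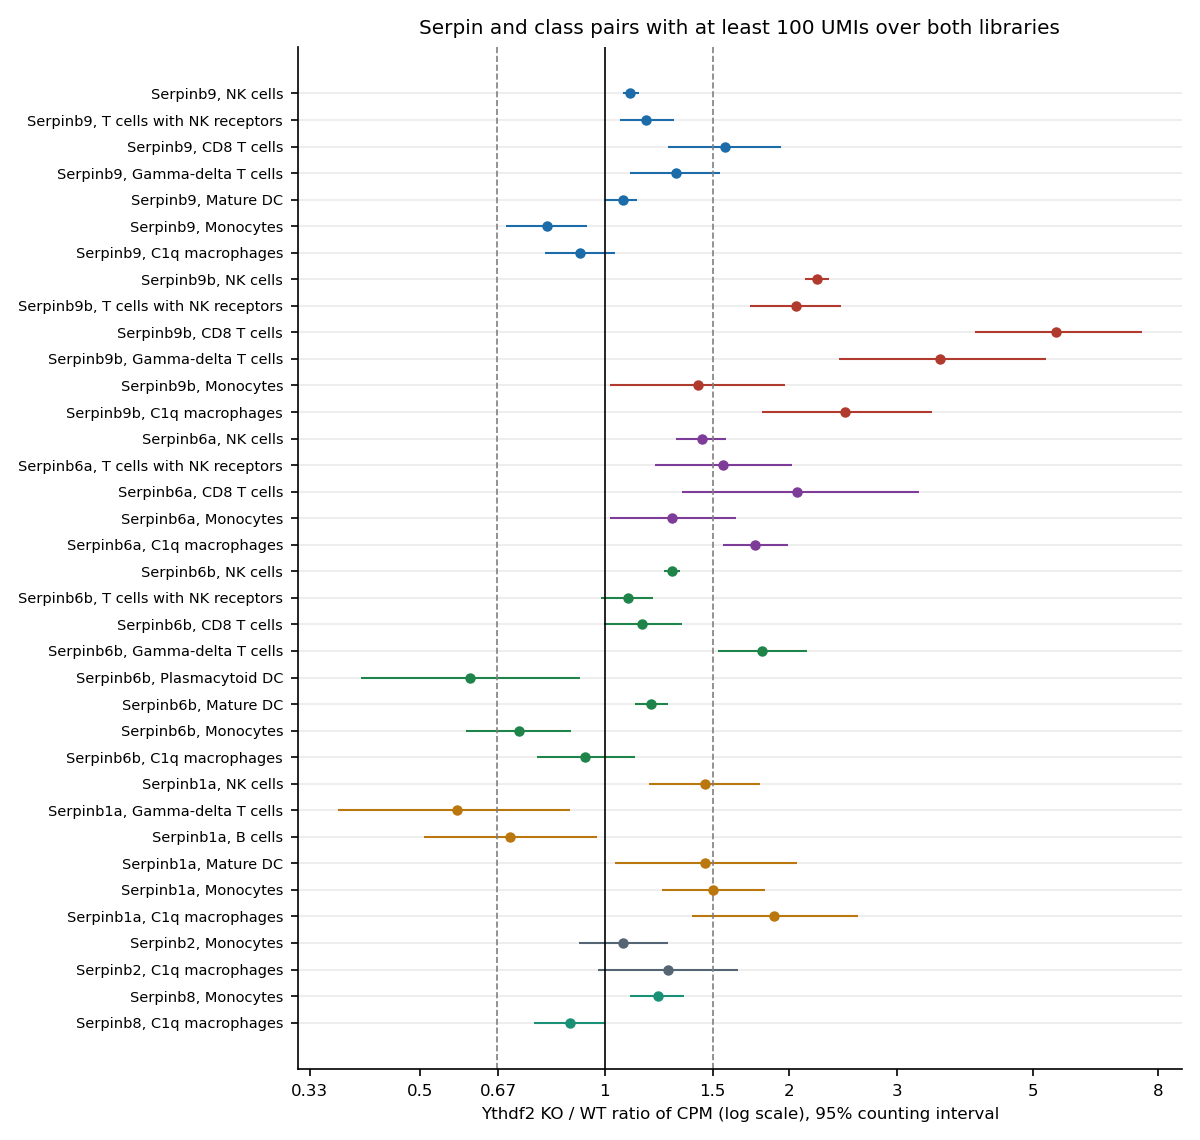
Ythdf2 KO to WT ratio of CPM (log axis) for the 36 pairs of serpin and class with at least 100 UMIs, with exact 95% intervals for counting error and dashed lines at 1.5-fold either way. Serpinb9b lies right of the upper line in CD8 T, gamma-delta T, C1q macrophage, NK and NK-receptor T classes (5.46, 3.53, 2.47, 2.22 and 2.05), and the 2 points left of the lower line are Serpinb1a in gamma-delta T cells (0.574) and Serpinb6b in plasmacytoid DCs (0.603).

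Mature DCs (499 and 271 cells) had no call among 3 counted members, where 4.12% of counted genes were called either way. Serpinb9 was at 1.07, Serpinb6b at 1.19 and Serpinb1a at 1.46. In the same barcodes 3 of 6 counted granzyme and perforin genes were called lower in KO: Gzmc at 229 CPM in WT and 75.2 CPM in KO, Gzmb at 126 and 42.5 CPM, and Prf1 at 28.5 and 13.1 CPM. The other counted genes of that list, Gzma (0.868), Gzmd (0.775) and Gzmf (0.720), were within the fold, as were Serpinb9 and Serpinb6b. The 3 genes were picked by their call, so their gap from the serpins is not read, and it was not tested.
In plasmacytoid DCs (70 and 128 cells) the only counted member, Serpinb6b, was lower in KO at 0.603 (0.401 to 0.913), where 3.99% of counted genes were called lower and 3.78% higher. In B cells (96 and 261 cells) the only counted member, Serpinb1a, was at 0.700, where 8.63% of counted genes were called either way. Lyz2 stood at 1025 CPM in WT and 294 CPM in KO B cells, and its part was not tested.

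C1q macrophages (4058 and 2484 cells) had 3 of 7 members called higher and none lower, where 1.48% of counted genes were called higher and 3.07% lower. Serpinb6a was 1.76-fold higher (1.56 to 1.99), at 21.9 CPM in WT and 38.7 CPM in KO. Its ratio was 1.67 and 1.87 in macrophages with and without an Arg1 UMI in 1000 sampled UMIs, and 1.77 and 1.62 with and without an Mrc1 UMI. The Serpinb6a difference was therefore present in each of these 4 subsets.
Serpinb1a was 1.89-fold higher (1.39 to 2.59), at 3.27 CPM in WT and 6.18 CPM in KO. This level was low, with 75 UMIs in 60 WT cells and 98 UMIs in 70 KO cells. The part of RNA from other cells in it was not tested. Serpinb9b was 2.47-fold higher (1.81 to 3.42), but its level there, near that of granzyme transcripts, was 1.59% and 1.77% of the NK level, and 53 of its 111 KO UMIs lay in 3 cells. Without the 3 highest cells of each library its ratio was 1.68 (1.13 to 2.51), and where no exclusion marker was allowed (2175 and 1168 cells) it was 1.03. Serpinb9 (0.913), Serpinb6b (0.930), Serpinb8 (0.878) and Serpinb2 (1.27) were within the fold. Serpinb2 reached 1.72 without the 3 highest cells of each library, which held 63 of its 128 WT and 35 of its 112 KO UMIs.
In monocytes (3712 and 3004 cells) 1 of 7 counted members, Serpinb1a, reached the fold, at 1.5 (1.24 to 1.83) with 9.92 CPM in WT and 14.9 CPM in KO, where 1.20% of counted genes were called higher and 3.01% lower. Being at the limit, it fell under the fold in 2 of 11 alternatives. Serpinb9b was at 1.42, Serpinb6a at 1.29, Serpinb8 at 1.22 and Serpinb2 at 1.07. Serpinb6b (0.724, 0.593 to 0.882) and Serpinb9 (0.805, 0.691 to 0.937) were lower in KO, within the fold. Serpinb6b stood there at 2.81% of its NK level in WT and 1.58% in KO, near Nkg7 (2.39% and 1.61%). For Serpinb2, 99 of 298 WT UMIs lay in 3 cells, and without the 3 highest cells of each library the ratio was 1.41 (1.17 to 1.71). It was 0.622 where no exclusion marker was allowed and 1.56 with the marker minimum raised to 2 times its value, so no direction is read for Serpinb2 in monocytes.
Furin, the target of Serpinb8, was lower in KO in both classes, at 209 CPM in WT and 135 CPM in KO monocytes (ratio 0.644) and at 232 and 124 CPM in C1q macrophages (0.535). Plau, the target of Serpinb2, stood at 19.9 and 15.0 CPM in monocytes and 41.1 and 41.5 CPM in C1q macrophages. Among the neutrophil proteases that Serpinb1a can inhibit, Prtn3 stood at 18.6 and 27.3 CPM in monocytes, within the fold, and Elane at 0.480 and 1.87 CPM on 9 and 30 UMIs.
No member reached 100 UMIs in neutrophils or patrolling monocytes. In neutrophils Serpinb9 had 43 UMIs in WT (34.2 CPM) and 20 in KO (11.1 CPM), a ratio of 0.325 (0.181 to 0.565). Of the 43 WT UMIs, 17 lay in 3 cells, and without the 3 highest cells of each library the ratio was 0.399 (0.196 to 0.782). The level was 5.95% of the NK level in WT and 1.75% in KO, beside 3.78% and 1.78% for Gzmb. The part of RNA from other cells in it was not tested.

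Further calls among the other protease and inhibitor genes are given here by class, up to 3 per list. The shares called over all counted genes are those given above for each class with a counted member. No such share was taken for neutrophils and patrolling monocytes, where no member was counted. The calls listed for those classes thus stand without a background share. Ctsk, a cathepsin, had 230 UMIs in WT NK cells, 220 of them in 3 cells, and none in KO, where the limit of 3 UMIs is 0.280 CPM. In monocytes Ctsk was at 0.237, Gzmc, Gzmb and Gzma at 0.466, 0.487 and 0.559, and the stefin gene Stfa2l1 at 1.60. In C1q macrophages Prf1 was at 0.642 and Gzma at 0.656, in B cells Ctsc at 0.643 and Gzmc at 0.644, and in plasmacytoid DCs the cysteine protease inhibitor Cstb at 1.51. In neutrophils, where Serpinb9 was low on few UMIs, Gzmb (0.423), Gzmc (0.539), Gzma (0.599), Stfa1 (0.335), Stfa2 (0.585), Ctsc (0.573) and Ctsh (0.585) were lower, and in patrolling monocytes Gzmc (0.531), Ctsd (0.556) and Ctsl (0.563). Gzmb was at 2.62% of its NK level in WT and 1.42% in KO monocytes, near Nkg7 there (2.39% and 1.61%). In neutrophils Gzmb was at 3.78% and 1.78%, and in B cells Gzmc at 1.61% and 0.854%. The granzyme and Prf1 ratios in these myeloid and B cell classes are thus not read as changes of expression.

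The genes most like each serpin were found by Pearson's r of log2(CPM + 1) over the 23 points, among 8422 genes. Serpinb9 was most like Tnfrsf9 (r = 0.93), Pik3r1 (0.93) and Sema4c (0.92), and Serpinb6b most like Il2ra (0.92), Sema4c (0.92) and Myo10 (0.92). Serpinb9b was most like Gipc2 (0.96), Nkg7 (0.95) and Sult2b1 (0.93). Tnfrsf9 is the costimulatory receptor 4-1BB, Il2ra the interleukin-2 receptor alpha chain and Nkg7 a protein of cytotoxic granules.
Serpinb6a was most like Mcm3 (0.91), Mcm6 (0.90) and Sars (0.89), of which the Mcm genes encode parts of the replicative helicase. Serpinb1a was most like Ccr6 (0.85), Rapgef4 (0.84) and Blk (0.79). Serpinb2 was most like Ear1 (0.98), Cd300e (0.92) and Zfyve9 (0.91), and Serpinb8 most like Pid1 (0.95), Ms4a6d (0.95) and Myof (0.93). Among members, Serpinb9b and Serpinb6a had r = 0.83, Serpinb2 and Serpinb8 0.76, and Serpinb6b and Serpinb2 -0.60.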

How the data were processed

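Counts are UMIs per gene and barcode, made by the authors with Cell Ranger before deposit (5.0.1 per the submitters' processing notes, 6.1.1 per the file headers), on mm10, and the notes also name Seurat 4.0.4. The library kit reads the 5′ end of transcripts. Kept barcodes had 200 genes and 500 UMIs or more, and no more than 10% of UMIs from mitochondrial genes. Those with more than 3 stromal, 10 red cell or 3 platelet marker UMIs stayed among the kept barcodes but entered no class.

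Cells entered a class by sums of marker UMIs, with other classes' markers as exclusions (NK cells: at least 3 UMIs of Ncr1, Klrb1c, Klre1, Klra8, Klra4, Klra9, Eomes and Klri2; C1q macrophages: at least 6 of C1qa, C1qb and C1qc). Of barcodes kept, 8714 in WT and 7018 in KO entered no class, and 4052 and 2673 of these held T or NK markers together with myeloid ones. UMIs were summed per class and library and given as CPM with exact Poisson intervals, and ratios with exact conditional intervals. No test was made, since each genotype is 1 library. Shares of cells, granzyme bins and macrophage splits were made after thinning each cell to 1000 UMIs, leaving out shallower cells. Doublets were not removed; removing the 8% of barcodes with the highest Scrublet scores was an alternative.

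The text names all 7 members, the 3 genes most like each (reaching 20 CPM in a class, gate markers left out), up to 3 genes per protease or inhibitor list and class past the fold with at least 100 UMIs, largest first, and each serpin's target; further granzymes in CD8 and gamma-delta T cells, and genes used to split classes or to show background RNA, were added after their values were seen. Members, lists and tests were chosen with earlier results of these data known, and gate limits were loosened after member levels had been seen. Positions are from GENCODE (mm10). Promoters are from RefSeq (GRCm38.p6), where 6 of 7 members matched. Scripts were tested on simulated data and used scipy 1.17.1 for intervals, biopython 1.88 for alignments and scanpy 1.11.5 for Scrublet, on Python 3.11.15.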

Additional observations from a re-analysis of the deposited data

Results flagged for a closer look

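Serpinb6b differed in opposite directions between classes, with a KO/WT ratio of 1.81 in gamma-delta T cells and 0.603 in plasmacytoid DCs. The former fell to 1.22 under an alternative, and the latter rests on 44 UMIs in WT and 59 in KO. Serpinb1a also differed in opposite directions, with 1.5 in monocytes and 1.89 in C1q macrophages against 0.574 in gamma-delta T cells. Its calls in monocytes and in gamma-delta T cells were each lost in 2 of 11 alternatives. In C1q macrophages its level was low, at 3.27 CPM in WT and 6.18 CPM in KO. These differences between classes were not tested, since each genotype is 1 library.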

How the results depend on the processing

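No paired analysis was possible because each genotype is 1 library without a replicate number. Under at least 1 alternative, 7 ratios lay on the other side of 1. For 2 that were called higher, the fold was also passed in the other direction. Serpinb9b in gamma-delta T cells was 0.186 with the marker minimum raised to 2 times its value. Serpinb9b in T cells with NK receptors was 0.329 where no exclusion marker was allowed. The others had main values within the fold and reached 0.622 (Serpinb2, monocytes), 0.703 (Serpinb6b, CD8 T cells), 0.947 (Serpinb9b, monocytes), 0.956 (Serpinb9, mature DCs) and 1.02 (Serpinb9, C1q macrophages). Serpinb2 in monocytes also reached 1.56, so its alternatives passed the fold both ways. Allowing no exclusion marker leaves few cells in the small classes. It also gave Serpinb9 1.16 in NK cells and 0.956 in mature DCs, Serpinb9b 72.1 in CD8 T cells, Serpinb6a 1.17 in T cells with NK receptors, Serpinb6b 1.38 in NK cells and 1.05 in mature DCs, Serpinb1a 0.426 in B cells, Serpinb8 1.04 in monocytes, and 5 pairs of member and class past the fold in place of 14. The cause of these shifts was not tested. The alternatives that follow, up to the mean of each cell's CPM, were chosen after seeing the data. Without macrophage exclusion in the lymphoid gates, Serpinb9 was 1.07, Serpinb9b 2.04 and Serpinb6b 1.22 in NK cells and Serpinb9b 3.88 in CD8 T cells. Without the 3 highest cells of each library, Serpinb9b in CD8 T cells was 29.8. Within granzyme bins of NK cells, Serpinb9b was 1.66, 1.56 and 2.58 in the bins of 0, 1 to 9 and 40 or more, Serpinb9 1.14 and 1.06 in the bins of 1 to 9 and 40 or more, and Serpinb6b 1.64 and 1.21 in the bins of 0 and 10 to 39. By the mean of each cell's CPM, Serpinb9b was 1.85 and Serpinb6b 1.36 in NK cells. Pairs past the fold numbered 8 with at least 200 UMIs, 24 with the lower fold limit tried and 6 with a fold of 2. Depth limits the classes of under 100 cells most, and members under 100 UMIs in a class were not counted there.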
